A study of Mus musculus with 8 samples.

Results

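The enzymes that build cholesterol were followed in mouse lymph node cells through a response to immunization. The 8 genes were taken by name as a set of sterol synthesis and its control: Hmgcs1, Idi1, Fdps, Fdft1, Sqle, Lss, Cyp51 and Insig1. In the array annotation used here, 7 of them had probe sets under their own symbol, 19 of 22626 probe sets without controls, and Insig1 is not analysed here. Of these 19 probe sets, 12 were bright enough on at least 2 arrays to be tested, and they covered 6 genes, all but Fdps.

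The cells came from lymph nodes of B10.BR mice, an inbred strain, and were sorted by flow cytometry before RNA was hybridised to Affymetrix mouse arrays. The stages were naive mice, with 3 arrays, mice at day 7 of the response, with 3 arrays, and mice at day 28, with 2 arrays. What the mice were immunized with, which cells were sorted, and the sex and age of the mice are not given in the sources used here. They do not say whether replicates were separate animals, so the p-values measure only the spread between these arrays.

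Cells make cholesterol from acetyl-CoA by way of mevalonate, isoprenoids, squalene and lanosterol. When sterols in the endoplasmic reticulum run low, the SREBP transcription factors are released from the retention protein Insig and switch on nearly every gene of the route together. Lymphocytes are known to call on this programme when they grow and divide, since each new cell needs membrane.

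The stretch of 250 bases before the transcription start is shown for 3 enzymes, 1 early and 2 late in the route, because SREBP acts there together with the factors NF-Y and Sp1. The sequences are those of RefSeq on GRCm38.p6, 5′ to 3′ on the strand of the gene. They lie at chr13:119690101-119690350 on the plus strand for Hmgcs1, at chr10:76531355-76531604 on the plus strand for Lss and at chr5:4104698-4104947 on the minus strand for Cyp51. Capitals mark matches, on either strand, to the core of the sterol regulatory element (TCACNCCAC, where N is any base), the NF-Y box (CCAAT) and the Sp1 box (GGGCGG).
Hmgcs1: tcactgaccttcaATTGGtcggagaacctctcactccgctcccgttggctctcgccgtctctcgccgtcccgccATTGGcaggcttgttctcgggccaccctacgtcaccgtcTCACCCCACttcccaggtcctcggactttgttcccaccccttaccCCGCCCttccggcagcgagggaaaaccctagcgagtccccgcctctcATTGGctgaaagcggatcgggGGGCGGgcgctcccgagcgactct
Lss: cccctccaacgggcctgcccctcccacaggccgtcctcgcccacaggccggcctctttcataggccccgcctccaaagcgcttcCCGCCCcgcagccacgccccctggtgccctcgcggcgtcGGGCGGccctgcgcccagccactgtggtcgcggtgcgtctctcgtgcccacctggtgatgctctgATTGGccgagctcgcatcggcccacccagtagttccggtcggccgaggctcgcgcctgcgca
Cyp51: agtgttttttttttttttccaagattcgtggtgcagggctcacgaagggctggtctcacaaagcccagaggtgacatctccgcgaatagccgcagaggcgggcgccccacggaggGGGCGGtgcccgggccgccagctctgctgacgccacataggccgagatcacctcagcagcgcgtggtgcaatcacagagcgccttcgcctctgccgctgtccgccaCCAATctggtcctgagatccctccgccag

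Sequences before the start were at hand for 5 of the 8 genes, Idi1 and Insig1 being the others. The core of the sterol regulatory element was found in 1 of the 5, Hmgcs1, where it lay 137 to 129 bases before the start, and in 1.05% of 32851 stretches of the same length. The NF-Y box and the Sp1 box were each found in all 5, against 33.8% and 32.7% of all stretches. In Hmgcs1 there were 3 NF-Y boxes and 2 Sp1 boxes, in Lss 1 and 2, and in Cyp51 1 of each. No match overlapped another in the printed sequences. These are matches of letters, and other forms of the element were not searched.

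As read from the values, each deposited number is a ratio of signal to the probe set's median on these 8 arrays, with one shared minimum as the divisor for dim probe sets. On the log2 scale 0 therefore marks that median or minimum, and a level of one gene cannot be set against that of another. A probe set was tested if its ratio reached 1 on at least 2 arrays. Because the ratios carry no level, they do not show whether defining markers of a cell type were present or absent in a group. In RNA from many cells, fewer cells of a type and less RNA per cell cannot be told apart.

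The arrays stood apart in the signal of 18 hybridisation spike-in probe sets, bacterial and phage transcripts added to every sample. The low spike-in arrays were the 3 of day 7, at a median log2 ratio between -1.70 and -1.03 over these probe sets, and naive replicate 1, at -1.16. The high spike-in arrays were the 2 of day 28, at 1.41 and 0.64, and naive replicates 2 and 3, at 0.85 and 0.66. This split cuts the naive arrays, and no stage other than naive lies in both sets.

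None of the 12 tested probe sets passed the test in any comparison (limma, Benjamini-Hochberg adjusted p under 0.05 over all 13042 probe sets tested). At day 7 against naive 0 of 12 passed, where 1.17% of all tested probe sets did. The count was also 0 of 12 at day 28 against naive, with 0.322% of all, and 0 of 12 at day 28 against day 7, with 1.30% of all. At an unadjusted p under 0.05, 1 of the 12 was higher (Sqle) and 0 lower at day 7 against naive, where 12.4% and 3.08% of all tested were. In the comparison of day 28 with naive 0 were higher and 1 lower (Cyp51), where 3.13% and 3.21% of all were. With day 28 set against day 7, 0 were higher and 3 lower (Fdft1, Sqle and Cyp51), where 3.47% and 13.1% of all were.

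The median log2 difference of the 12 probe sets was 0.34 at day 7 against naive, where that of all tested probe sets was 0.11. At day 28 against naive it was -0.26, where that of all was -0.05, and at day 28 against day 7 it was -0.57, where that of all was -0.16. The comparisons share arrays. Leaving out 1 array moved the median of the 12 to 0.12 (naive replicate 2), 0.11 (day 7 replicate 2), 0.52 (naive replicate 3) or 0.73 (day 7 replicate 1) at day 7 against naive. In the comparison of day 28 with naive it became -0.18 (day 28 replicate 1 left out), -0.41 (naive replicate 1) or -0.44 (naive replicate 2). In that of day 28 with day 7 it became -0.33 without day 7 replicate 2. In 6 of the 12 the day 7 mean was the highest of the 3 stages and the day 28 mean the lowest, an order held by 26.5% of all tested probe sets. Between replicates of a stage, the median over the 12 varied with a pooled SD of 0.30.

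**Figure D1:**
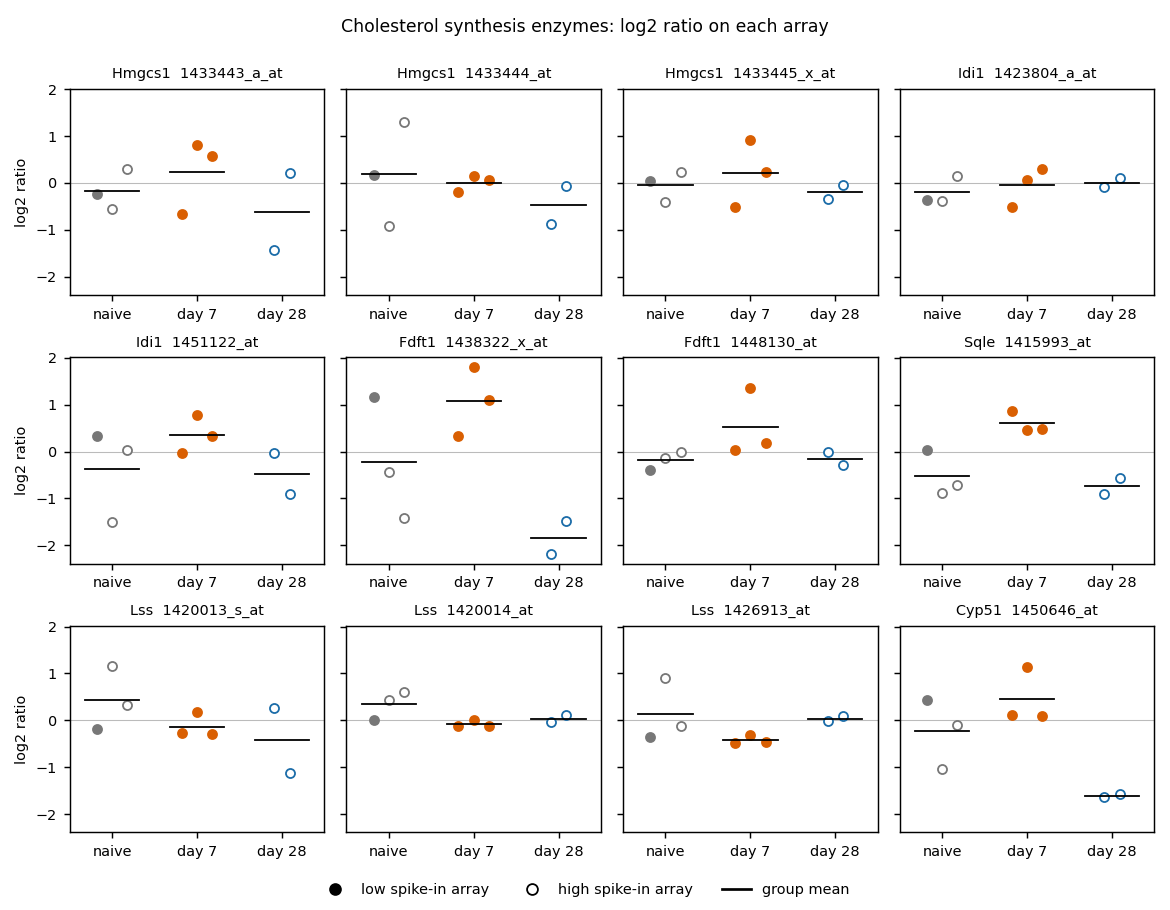
Log2 ratio of the 12 tested probe sets on each of the 8 arrays, by stage, with 1 point per array and a line at the group mean; filled points are arrays with low spike-in signal and open points those with high spike-in signal. Cyp51, Sqle and 1 of the 2 Fdft1 probe sets have their filled points above all open points, whereas the Hmgcs1 and Idi1 stages overlap.

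Hmgcs1, the synthase that makes HMG-CoA at the head of the mevalonate route, had 3 tested probe sets. The probe set 1433443_a_at had log2 ratios of -0.24, -0.56 and 0.29 in naive mice, -0.67, 0.82 and 0.58 at day 7, and -1.43 and 0.21 at day 28. All 3 stages overlapped, and the 2 day 28 arrays were far apart, 1 of them being the lowest of the 8. By 1433444_at naive mice had 0.17, -0.93 and 1.31, those of day 7 -0.19, 0.14 and 0.07, and those of day 28 -0.87 and -0.07. Here the naive arrays alone spanned the whole range. By 1433445_x_at, a type of probe set that can also bind similar transcripts, the values were 0.04, -0.41 and 0.24 in naive mice, -0.50, 0.91 and 0.24 at day 7 and -0.35 and -0.05 at day 28. The differences of day 7 from naive were 0.41 ± 0.56 (SE), -0.18 ± 0.55 and 0.26 ± 0.40 in that order of probe sets, with limma adjusted p of 0.731, 0.891 and 0.771. They did not have the same sign. For day 28 against day 7 they were -0.86 ± 0.63, -0.48 ± 0.62 and -0.41 ± 0.45, with adjusted p between 0.540 and 0.728. The 95% confidence interval of the first of these ran from -2.31 to 0.59.

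Idi1, the isomerase that interconverts the isoprenoid building blocks, had 2 tested probe sets. By 1423804_a_at the log2 ratios were -0.37, -0.39 and 0.15 in naive mice, -0.51, 0.07 and 0.29 at day 7, and -0.08 and 0.10 at day 28. This was one of the flattest of the 12, with stages that overlapped fully. By 1451122_at they were 0.33, -1.51 and 0.04 in naive mice, -0.04, 0.78 and 0.33 at day 7, and -0.04 and -0.90 at day 28. Naive replicate 2 was the lowest of the 8 arrays there. The differences of day 7 from naive were 0.15 ± 0.32 (adjusted p = 0.835) and 0.74 ± 0.53 (adjusted p = 0.516). Those of day 28 from naive were 0.21 ± 0.36 and -0.09 ± 0.60 (adjusted p = 0.998 for both), with intervals of -0.62 to 1.04 and -1.47 to 1.30.

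Fdps, which joins isoprenoids to farnesyl diphosphate, could not be tested. Its probe set 1423418_at lay between -0.77 and -0.47 on 7 arrays and at 0.69 on day 7 replicate 1. Its other probe set, 1438150_at, lay between -0.78 and -0.06 and never reached a ratio of 1. In a fit of all probe sets without the brightness filter, the 2 had differences of 0.38 and 0.25 at day 7 against naive (adjusted p = 0.695 and 0.631). The raised value of this gene was on 1 array only.

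Fdft1 encodes squalene synthase, the first enzyme committed to sterols. Its probe set 1438322_x_at is of the type that can also bind similar transcripts. By 1438322_x_at the log2 ratios were 1.17, -0.44 and -1.42 in naive mice, 0.34, 1.81 and 1.11 at day 7, and -2.19 and -1.48 at day 28. All 3 day 7 arrays were above both day 28 arrays, and the naive arrays ran from among those of day 7 to just above those of day 28. The difference of day 28 from day 7 was -2.92 ± 0.76 (95% interval -4.68 to -1.15, unadjusted p = 0.00528, adjusted p = 0.121). It did not pass, although it was the largest difference among the 12 probe sets in any of the 3 comparisons. The second tested probe set, 1448130_at, had -0.39, -0.13 and 0.00 in naive mice, 0.03, 1.36 and 0.18 at day 7 and 0.00 and -0.29 at day 28. Its day 7 arrays also lay above both other stages, 2 of them by little. It had a difference of day 28 from day 7 of -0.67 ± 0.44 (adjusted p = 0.498). The mean of both probe sets differed by -1.79 ± 0.49 (adjusted p = 0.122). The 2 probe sets that were not tested, 1438918_at and 1438919_x_at, were flat between -1.17 and -0.75.

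Sqle, the epoxidase that oxidises squalene and a slow step of the route, had 1 probe set, 1415993_at. Its log2 ratios were 0.03, -0.88 and -0.70 in naive mice, 0.87, 0.46 and 0.48 at day 7, and -0.91 and -0.56 at day 28. Every day 7 array lay above every array of the other stages, and naive replicate 1 was the next highest. The difference of day 7 from naive was 1.12 ± 0.33 (95% interval 0.35 to 1.89, unadjusted p = 0.00997, adjusted p = 0.176). For day 28 against day 7 it was -1.34 ± 0.37 (interval -2.20 to -0.48, unadjusted p = 0.00735, adjusted p = 0.141). Day 28 and naive arrays overlapped, with a difference of -0.21 ± 0.37 (interval -1.07 to 0.65). The median ratio of this probe set was 0.85, under 1, and it passed the brightness filter through naive replicate 1 and the 3 day 7 arrays, which is a selection that favours such a difference.

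Lss closes the ring to lanosterol. All 3 of its probe sets had a day 7 mean below the naive mean. By 1420013_s_at the log2 ratios were -0.19, 1.16 and 0.33 in naive mice, -0.28, 0.17 and -0.29 at day 7, and 0.27 and -1.13 at day 28. For 1420014_at they were 0.00, 0.43 and 0.61 in naive mice, -0.12, 0.00 and -0.12 at day 7 and -0.05 and 0.11 at day 28. Stages overlapped in both of these probe sets. The third, 1426913_at, had -0.35, 0.89 and -0.13 in naive mice, -0.48, -0.31 and -0.46 at day 7 and -0.02 and 0.09 at day 28. In it both day 28 arrays lay above all day 7 arrays, the opposite order to that of Sqle. The median ratio of 1426913_at was 0.86, under 1. It passed the brightness filter through naive replicate 2 and day 28 replicate 2 only, a selection that favours a low day 7. The differences of day 7 from naive were -0.56 ± 0.48, -0.43 ± 0.27 and -0.55 ± 0.37, with adjusted p of 0.583, 0.474 and 0.485. As the mean of its probe sets, Lss differed by -0.51 ± 0.32 (adjusted p = 0.447). Lss was therefore the gene of the set whose mean at day 7 was below that of naive mice by every tested probe set, without passing the test in any.

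Cyp51 removes a methyl group from lanosterol. Its tested probe set, 1450646_at, had log2 ratios of 0.44, -1.03 and -0.09 in naive mice, 0.11, 1.13 and 0.09 at day 7, and -1.64 and -1.57 at day 28. Both day 28 arrays were below all 6 others and close to each other. The difference of day 28 from naive was -1.38 ± 0.52 (95% interval -2.57 to -0.18, unadjusted p = 0.0288, adjusted p = 0.694). Against day 7 it was -2.05 ± 0.52 (interval -3.25 to -0.86, unadjusted p = 0.00433, adjusted p = 0.112), the smallest adjusted p of the 12 probe sets. At day 7 against naive the value was 0.67 ± 0.46 (adjusted p = 0.495). Of the 2 probe sets not tested, 1422534_at stayed between -0.88 and -0.74 on all arrays. The other, 1422533_at, lay between -0.56 and -0.05 on 7 arrays and at 1.07 on day 7 replicate 3.

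**Figure D2:**
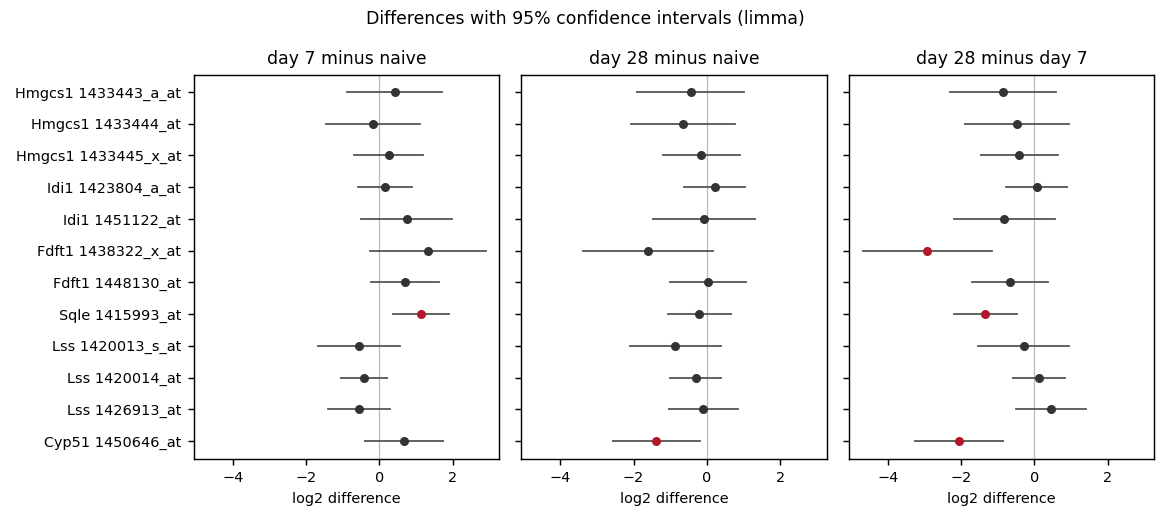
Log2 differences of the 12 tested probe sets in the 3 comparisons, from the limma fit, with 95% confidence intervals; red points have an unadjusted p under 0.05. These are Sqle at day 7 against naive, Cyp51 at day 28 against naive, and Fdft1, Sqle and Cyp51 at day 28 against day 7, and none passed after adjustment over 13042 probe sets.

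Groups that do not overlap were counted as well. At day 7 2 of the 12 lay wholly above naive (Sqle and 1448130_at of Fdft1) and 0 wholly below, where 13.4% and 8.61% of all tested probe sets did. At day 28 0 lay wholly above and 2 wholly below naive (Cyp51 and 1438322_x_at of Fdft1), against 7.76% and 9.88% of all. Day 28 lay wholly below day 7 in 4 of the 12 (Sqle, Cyp51 and both of Fdft1) and wholly above in 1, 1426913_at of Lss. The shares of all tested probe sets were 29.7% and 15.2%, so that the enzymes were near the background in each count.

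Sqle, Cyp51 and 1438322_x_at of Fdft1 followed the split by spike-in signal without overlap, each low spike-in array being above each high one. That was 3 of the 12 enzyme probe sets, against 16.6% of all tested. Only 1426913_at of Lss ran the other way without overlap, 1 of the 12 against 5.8% of all.

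**Figure D3:**
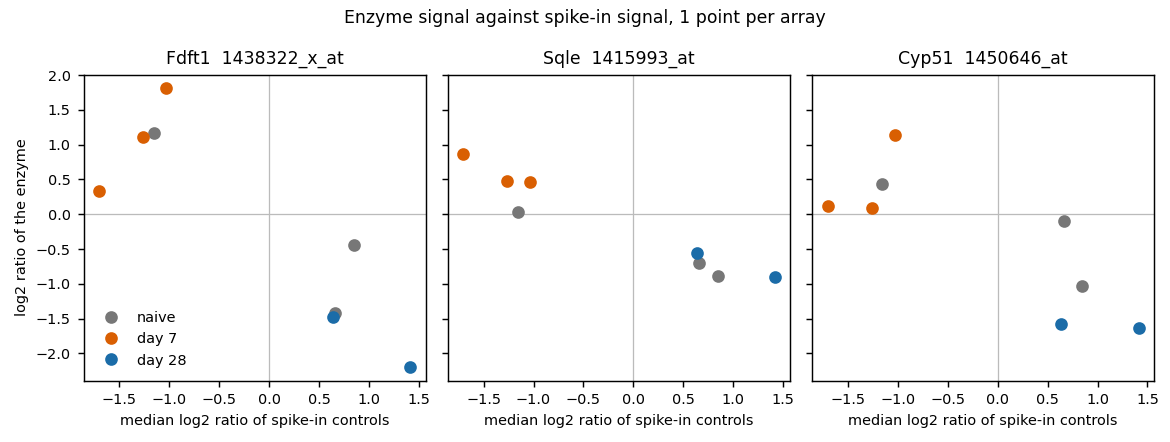
Log2 ratio of Sqle, Fdft1 (1438322_x_at) and Cyp51 against the median log2 ratio of the 18 spike-in probe sets, 1 point per array, coloured by stage. The 4 arrays with low spike-in signal, 3 of day 7 and 1 naive, lie above the 4 with high signal, 2 of day 28 and 2 naive.

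Inside the low spike-in arrays, day 7 can be set against naive replicate 1 only. The mean of the 3 day 7 arrays minus that array was 0.58 for Sqle, -0.08 for Fdft1 by 1438322_x_at and 0.0032 for Cyp51. By the other tested probe set of Fdft1, 1448130_at, it was 0.91. Over the 12 probe sets this difference had a median of 0.04, with 8 above 0 (66.7%, against 49.6% of all tested). Inside the high spike-in arrays, the 2 day 28 arrays minus naive replicates 2 and 3 gave 0.06 for Sqle and -1.05 for Cyp51. For Fdft1 they gave -0.91 by 1438322_x_at and -0.08 by 1448130_at, so that its 2 probe sets differed in both sets of arrays. The median over the 12 was -0.41, with 9 below 0 (75%, against 48.3% of all tested). With a term for the split in the fit, the day 7 difference of Sqle had an adjusted p = 0.821 and the day 28 difference of Cyp51 from naive an adjusted p = 0.491. Day 7 and day 28 lay in different sets, so that their difference was then estimated through the naive arrays alone. It was -0.51 ± 0.50 for Sqle, -0.82 ± 0.89 for Fdft1 by 1438322_x_at and -1.05 ± 0.76 for Cyp51 (adjusted p = 0.832, 0.854 and 0.719). By 1448130_at of Fdft1 it was -0.99 ± 0.75 (adjusted p = 0.737).

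Naive replicate 1 decided part of the calls. Without it, Sqle passed at day 7 against naive (1.40, adjusted p = 0.0273), and Sqle, Fdft1 by 1438322_x_at and Cyp51 passed at day 28 against day 7 (adjusted p = 0.0481, 0.0288 and 0.0462). Day 7 and naive then lie in different spike-in sets throughout, so that the stage and the spike-in signal cannot be told apart. The number of all probe sets called changed with it, to 1727 at day 7 against naive (152 with the array) and to 810 at day 28 against day 7 (170 with it).

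Other measures moved between the stages too. The median log2 ratio of the 26 tested probe sets of a mitosis list lay between -0.60 and -0.28 in naive mice, between 1.33 and 1.98 at day 7 and between -0.35 and -0.27 at day 28. In that list 12 of 26 rose at day 7 against naive and 10 of 26 fell at day 28 against day 7, with 0 the other way. Of all tested probe sets, 1.17% and 1.30% passed in these comparisons, in either direction. The median of 9 B cell probe sets lay between -0.60 and -0.09 in naive mice and between -0.30 and 0.08 at day 7, and it was 3.90 and 3.42 at day 28. In this list 7 of 9 rose at day 28 against naive and 8 of 9 against day 7, with 0 the other way, where 0.322% and 1.30% of all tested passed. The 13 T cell and 6 monocyte and macrophage probe sets had 0 past the threshold in each comparison. The T cell medians lay between -0.67 and 0.75 over the 8 arrays. Those of the monocyte and macrophage list lay between -0.71 and -0.06 in naive mice and between -0.33 and 0.30 at day 7. At day 28 they were 0.71 and 0.17. By their means all 6 of this list were higher at day 28 than in naive mice, 4 of them without overlap, against 7.76% of all tested. Both control genes with probe sets at either end of the transcript were read for how intact the RNA was. For Gapdh, the log2 ratio at the 3' end minus that at the 5' end ran from 0.17 to 0.57 in naive mice and from -1.18 to 1.17 at day 7, and it was -1.09 and 0.02 at day 28. For beta-actin it ran from -0.01 to 0.93 in naive mice and from -0.42 to 2.76 at day 7, and it was -1.08 and -0.05 at day 28. The part of these in the enzyme values was not tested.

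The rest of the pathway was read from lists by role. Of 48 further genes of sterol synthesis, SREBP control, cholesterol transport, efflux and fatty acid synthesis, 40 had probe sets and 33 were tested, by 51 probe sets. Of these 51, 0 passed at day 7 against naive, 1 rose at day 28 against naive, and 1 rose and 1 fell at day 28 against day 7. The shares of all tested probe sets that passed were 1.17%, 0.322% and 1.30% in that order of comparisons. At an unadjusted p under 0.05, 6 were higher and 3 lower at day 7 against naive, 2 higher and 4 lower at day 28 against naive, and 4 higher and 7 lower at day 28 against day 7. Of all tested probe sets, 12.4% were higher and 3.08% lower in the first of these, 3.13% and 3.21% in the second, and 3.47% and 13.1% in the last. The median differences of the 51 were 0.27, -0.05 and -0.54 in these 3 comparisons, beside 0.11, -0.05 and -0.16 for all tested probe sets. With the 8 genes included, the mevalonate and isoprenoid steps (13 probe sets) had 0 past the threshold in each comparison and medians of 0.26, -0.09 and -0.48. The steps from squalene to cholesterol (14 probe sets) also had 0, with medians of 0.68, -0.16 and -0.60.

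Among the controls of the route, Srebf2 encodes the SREBP form that drives sterol genes. Its tested probe set, 1452174_at, had log2 ratios of 0.78, -0.04 and -0.21 in naive mice, 0.01, 0.24 and -0.01 at day 7, and -0.32 and 0.18 at day 28. The stages overlapped. The differences were -0.09 ± 0.34 at day 7 against naive and -0.25 ± 0.38 at day 28 against naive. Srebf1 (1426690_a_at), whose products serve fatty acid genes more, had -0.31, 1.94 and 1.05 in naive mice, 0.08, -0.40 and 0.41 at day 7, and -1.52 and -0.08 at day 28. Its difference at day 28 from naive was -1.70 ± 0.70 (unadjusted p = 0.0430, adjusted p = 0.761). Insig2, the other retention protein, had 3 tested probe sets, of which 1417981_at and 1417982_at followed the spike-in split without overlap, as Sqle did. By 1417982_at it had 1.20, -1.19 and -1.88 in naive mice, 0.64, 1.86 and 0.95 at day 7, and -1.51 and -2.04 at day 28. The difference of day 28 from day 7 by this probe set was -2.92 ± 0.86 (adjusted p = 0.157), and those of the other 2 probe sets were -1.05 ± 0.63 and -0.85 ± 0.47.

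**Figure D4:**
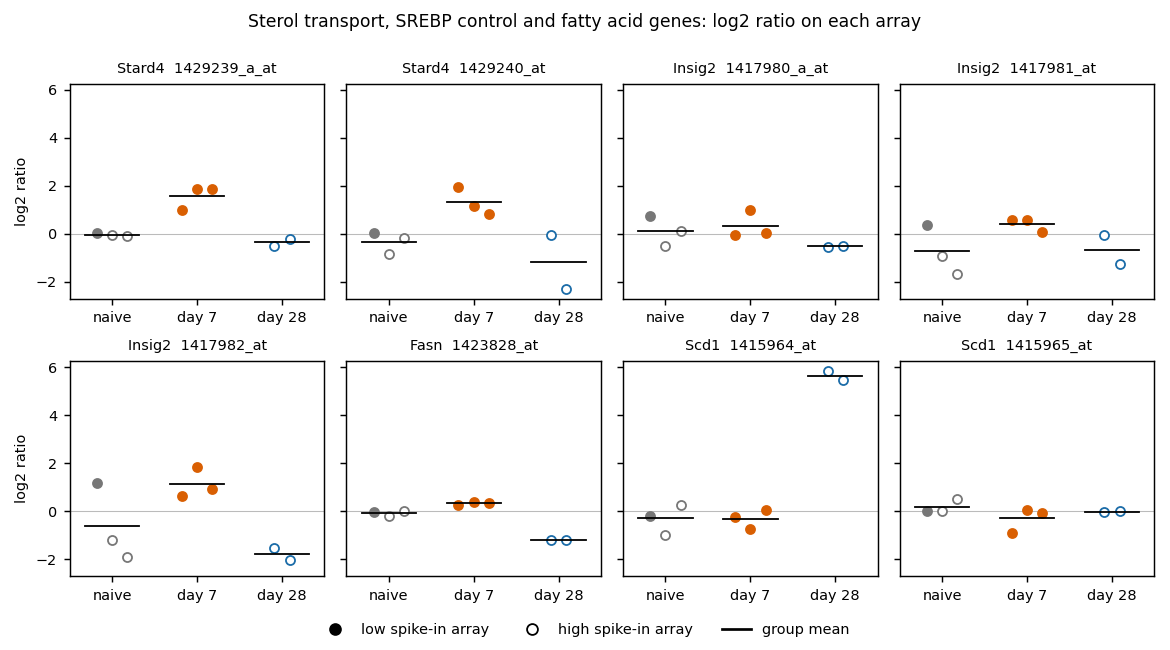
Log2 ratio of genes beside the synthesis route on each array, by stage, with 1 point per array, a line at the group mean, and filled points for low and open points for high spike-in arrays. The 2 day 28 arrays of Scd1 by 1415964_at stand at 5.85 and 5.47 while 1415965_at stays near 0, and both Stard4 probe sets have all day 7 arrays above the other stages.

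The 2 genes that passed belong to fatty acid synthesis. Scd1, a desaturase that makes monounsaturated fatty acids, had log2 ratios of -0.17, -0.96 and 0.29 in naive mice, -0.22, -0.74 and 0.08 at day 7, and 5.85 and 5.47 at day 28, all by 1415964_at. Both day 28 arrays stood far above the 6 others. It rose at day 28 against naive (5.95 ± 0.45, adjusted p = 0.00428) and against day 7 (5.96 ± 0.45, adjusted p = 0.00333). Its median ratio was 0.9715, under 1, so that this is a dim probe set outside day 28, and no fold is given. Its other tested probe set, 1415965_at, had a day 28 difference from naive of -0.20 ± 0.38 (adjusted p = 0.998), and the mean of both was 2.87 ± 0.35 (adjusted p = 0.0165). The difference from naive had an adjusted p = 0.0571 without day 28 replicate 1 and 0.0711 with only the 2 groups fitted, and that from day 7 had 0.0885 with the spike-in term. Inside the high spike-in arrays the difference from naive was 6.0. The day 28 arrays were also those with high B cell probe sets, and the part of those cells in it was not tested.

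Fasn, which builds palmitate, had -0.03, -0.18 and 0.03 in naive mice, 0.27, 0.40 and 0.33 at day 7, and -1.17 and -1.19 at day 28. Both day 28 arrays were below all others. It fell by 1.52 on the log2 scale at day 28 against day 7 (SE 0.27, adjusted p = 0.0459). This call was kept in 4 of 17 alternatives, and inside the high spike-in arrays the day 28 difference from naive was -1.11. Stard4, which carries sterols between membranes and is a known SREBP target, was picked out after its values were seen. By 1429239_a_at it had 0.04, -0.05 and -0.09 in naive mice, 1.01, 1.86 and 1.86 at day 7, and -0.50 and -0.19 at day 28. Its difference at day 7 from naive was 1.61 ± 0.32 (adjusted p = 0.0706), and that of day 28 from day 7 was -1.92 ± 0.36 (adjusted p = 0.0532). By its other probe set, 1429240_at, the difference at day 7 from naive was 1.65 ± 0.61 (adjusted p = 0.263). As the mean of its probe sets Stard4 differed by 1.63 ± 0.32 at day 7 from naive (adjusted p = 0.0520). For day 28 from day 7 that mean differed by -2.20 ± 0.36 (adjusted p = 0.0279), which passed in that setting only by a fit of gene means. Both Stard4 probe sets followed the spike-in split without overlap, as Sqle did. Inside the low spike-in arrays, day 7 minus naive replicate 1, a single array, was 1.53 by 1429239_a_at.

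Profiles nearest to the median profile of the 12 enzyme probe sets were sought over the 8 arrays, each centred on its own mean. The measure was the root mean square difference in log2 ratio. The nearest gene outside the lists was Alg13, a subunit of a glycosyltransferase of the endoplasmic reticulum, at 0.104. It was followed by Brd3, a chromatin reader (0.117), Stx17, a membrane fusion protein of autophagy (0.123), Clic4, an intracellular chloride channel protein (0.130), and Fam210b, a mitochondrial protein (0.135). The enzymes themselves lay between 0.180 (1433445_x_at of Hmgcs1) and 1.20 (1438322_x_at of Fdft1) from their own median. The median profile was shallow, with a root mean square of 0.30, and none of these 5 genes passed the test in any comparison.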

How the data were processed

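The deposited table holds linear ratios for 22690 probe sets on 8 arrays. GCRMA is named, without a version, per the submitters' processing notes, and how the authors scaled the ratio was inferred here: the median ratio was 1 (within 0.0015) for 47.9% of probe sets. Taken to log2 here, the deposited ratios of the 22626 probe sets without controls were kept where 2 or more arrays reached a ratio of 1, which left 13042. They were fitted with limma 3.58.1 in R 4.3.3, with 1 mean per stage over all 8 arrays, two-sided tests, and Benjamini-Hochberg adjustment over all kept. The number of arrays limits the precision. Each probe set was analysed on its own, and 20380 carried 1 symbol.

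The genes, lists and settings were chosen with earlier results of these data known. Named are the 8 genes, list genes past the threshold, Srebf1, Srebf2, Insig2 and 2 genes not analysed here, and the 5 nearest profiles. Stard4, Dhcr7, Npc2 and Scd2 were added after their values were seen. No label pairs replicate numbers. Same-numbered naive and day 7 arrays correlated at -0.23, -0.36 and 0.10 in their deviations from the group mean. With day 28, same-numbered arrays correlated at 0.12 and 0.12 for naive and at 0.17 and 0.09 for day 7. Deviations cancel within such small groups, so these values cannot show whether arrays were paired. The fit was tested on simulated data with independent noise, large planted differences and no spike-in split. That test does not bear on the split or on smaller differences. Alternatives were 10 settings and leaving out each of 8 arrays.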

Additional observations from a re-analysis of the deposited data

Results flagged for a closer look

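Of the genes named, 2 had a day 28 effect that differed from the day 7 effect, both taken against the same naive arrays, by the test of day 28 against day 7. Scd1 differed by 5.96 on the log2 scale by 1 of its 2 tested probe sets, and Fasn by -1.52. Groups held 2 or 3 arrays, too few to test a single array as an outlier.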

How the results depend on the processing

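Counts and medians were recomputed under 18 alternatives, and single probe sets under the 16 or 17 that kept them. At day 28 against naive 0 of the 12 enzyme probe sets passed in all 18. At day 7 against naive 1 passed with array weights (Sqle) and 0 to 1 when an array was left out. At day 28 against day 7 1 passed with only the 2 groups compared (Fdft1), 3 with array weights and 0 to 3 when an array was left out. The replicate block gave 0 enzyme probe sets in each of the 3 comparisons, and so did the spike-in term. The enzyme median ran from 0.11 to 0.73 at day 7 against naive, from -0.44 to -0.18 at day 28 against naive and from -0.84 to -0.33 at day 28 against day 7 when an array was left out, and was -0.96 at day 28 against day 7 over gene means. Of the other list probe sets, at day 7 against naive 6 passed with array weights, 1 with gene means and 0 to 5 with an array left out. The 1 with gene means was Scd2 (1.76 ± 0.29, adjusted p = 0.0298), added after its values were seen. In the main fit its probe sets 1415822_at and 1415824_at had 2.32 ± 0.51 and 1.21 ± 0.50 (adjusted p = 0.0937 and 0.310). At day 28 against naive 2 passed with no filter, 0 with the stricter filter, 0 with only the 2 groups compared, and 0 to 1 with an array left out. The stricter filter left Scd1 1415964_at, the only call of the main fit there, untested, since its median ratio was 0.9715. For day 28 against day 7 that probe set was untested by this filter too, and Fasn had an adjusted p = 0.0726. At day 28 against day 7 there were 0 with the stricter filter and with the spike-in term, 1 each with the replicate block, with a trended and robust variance, with median centring and with quantile normalization, 6 with array weights, and 1 to 5 with an array left out. Beyond that, the cause was not tested. The replicate block cut all calls to 16, 9 and 15 in the 3 comparisons, and the spike-in term to 14 and 0 at day 7 against naive and at day 28 against day 7, where array weights gave 1442 and 1377. Leaving out an array put all calls between 17 and 1727 at day 7 against naive, between 2 and 57 at day 28 against naive and between 25 and 810 at day 28 against day 7. In the 3 comparisons they were 76, 26 and 62 with the stricter filter, 54, 19 and 52 with a trended and robust variance, and 68, 0 and 591 with only the 2 groups compared.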
